A study of Mus musculus with 6 samples.

Results

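The genes described are 9 that encode bone morphogenetic proteins (BMPs) or proteins that act on BMP ligands outside or at the surface of the cell. They are Bmp1, Bmp2, Bmp4, Bmp6, Grem1, Fst, Fstl1, Bmper and Bambi. All 9 were found, by symbol, among the 26532 genes of the deposited table. RNA had been sequenced from mouse embryonic fibroblasts (MEFs), an embryo-derived culture with the capacity to become osteoblasts. In 3 libraries the cells carried a recombinant adenovirus expressing ORAI2, which forms the pore of store-operated calcium channels, and their genotype label is ORAI2 overexpression. In the other 3 they carried an adenovirus with green fluorescent protein (GFP), and their genotype label is WT. Both groups are labelled as mesenchymal stem cells undergoing osteogenic differentiation. The study's title refers to differentiation induced by BMP9. Whether these cultures received BMP9, and for what time, is not in the labels. Nor do they say that replicates were separate cultures, so the p-values measure the spread between these samples only, and that spread may be technical.

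BMPs are secreted dimers of the TGF-beta superfamily. They bring together type I and type II receptor kinases, which phosphorylate SMAD1, SMAD5 and SMAD9, and these enter the nucleus with SMAD4. Bone formation by mesenchymal cells depends on this signal, and it is limited outside the cell by proteins that bind the ligands, such as noggin, gremlins and follistatin. Not every one of the 9 genes is a ligand or a secreted antagonist in the strict sense. Bmp1 encodes a tolloid-type metalloprotease that cleaves procollagens and the BMP antagonist chordin. Bambi encodes a membrane-bound decoy receptor without a kinase domain.

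Total counts per library lay between 18526884 and 18844436. Orai2 had between 909 and 994 counts in the GFP libraries and between 45140 and 67882 in the ORAI2 libraries, as the names of the count columns have it. The deposited TPM columns of the same names did not follow the counts, and the TPM column named ORAI2-3 held Orai2 at 36.33, close to the 3 columns named GFP (24.83 to 38.19). All results below come from the counts, save where TPM values are named. Levels are given as CPM, counts scaled to TMM-adjusted library totals, with the SD over 3 libraries. Differences were tested with edgeR's quasi-likelihood test on the whole table, and calls were made where the Benjamini-Hochberg adjusted p over the 13764 genes past the low-count filter was under 0.05.

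Of the 9 genes, 8 passed that filter and Bmp6 did not. Bmp2 and Fst rose, Fstl1 and Bmp1 fell, and Bmp4, Grem1, Bmper and Bambi were not called. The 4 calls among 8 tested genes are to be read against the 42.9% of all tested genes that were called in this comparison (20.8% higher and 22.1% lower), so the share of calls among these genes was near the background. The median log2 fold change of the 8 was -0.06, beside -0.002 over all tested genes. The groups did not overlap for 4 of the 8, which were the 4 called genes (2 higher, 2 lower), beside 52.8% of all tested genes (26.2% with ORAI2 higher and 26.6% with ORAI2 lower). Over all tested genes the median absolute log2 fold change was 0.18.

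**Figure D1:**
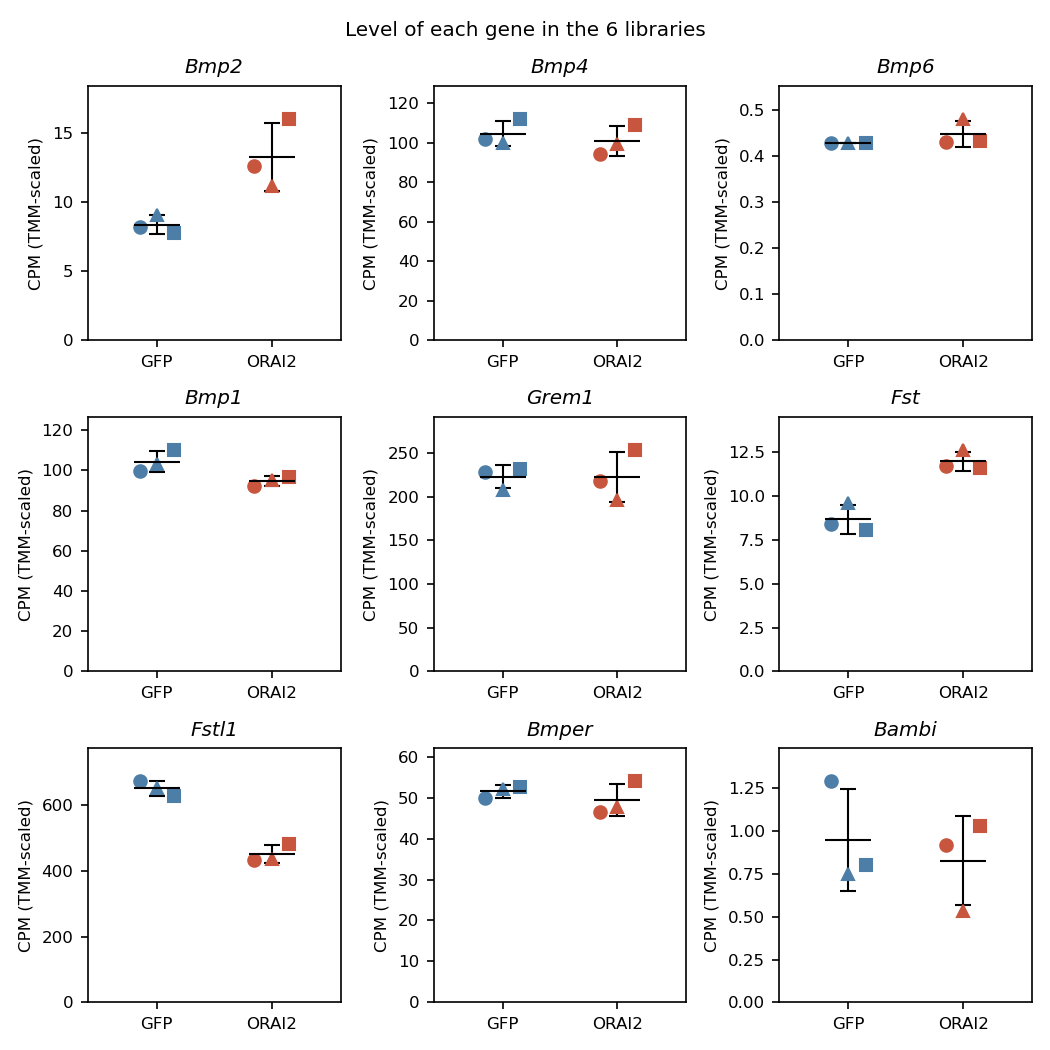
Level of each of the 9 genes in CPM (y axes start at 0) in the 3 GFP libraries (blue) and the 3 ORAI2 libraries (red); the marker shape gives the replicate number (circle 1, triangle 2, square 3), the horizontal line is the mean and the bars are the SD. Bmp2 and Fst lie higher and Fstl1 lower in every ORAI2 library, while the groups overlap for Bmp4, Grem1, Bmper and Bambi.

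Levels of different genes can be set side by side only per transcript length, so counts were divided by the merged exon length of each gene and rescaled to the same sum in every library (as TPM is). On this scale Fstl1 was the most abundant of the 9, at 538 ± 11.1 in the GFP libraries (SD, n = 3), followed by Grem1 at 219 ± 13.7 and Bmp4 at 189 ± 13.8. The ranges of Grem1 and Bmp4 overlapped in both groups, although within each of the 6 libraries Grem1 was the higher (ratio of Bmp4 to Grem1 from 0.796 to 0.933). In all 6 deposited TPM columns Grem1 lay further above Bmp4. It was at 277.57 against 102.65 in the column named GFP-1 and at 212.18 against 54.05 in that named ORAI2-3. The protease gene Bmp1 stood at 47.8 ± 3.11 and Bmper at 43.4 ± 1.88, and these 2 overlapped in the ORAI2 libraries. Bmp2 (9.55 ± 0.741) and Fst (7.67 ± 0.703) came next. Bambi (0.757 ± 0.227) and Bmp6 (0.447 ± 0.00591) were at the bottom, under 1 on this scale. The order of the means was the same in the ORAI2 libraries, where Fstl1 was at 377 ± 22.4, Bmp2 at 15.3 ± 2.89 and Fst at 10.7 ± 0.459. This order depends on the lengths used, and the deposited TPM columns gave another. There Grem1 lay above Fstl1 in the columns named ORAI2-1 (258.01 against 236.35) and ORAI2-2 (333.78 against 262.75). Fst lay above Bmp2 in all but the column named ORAI2-3, and Bmp1 did not overlap Bmper. On the per-length scale, nearly all RNA of the 3 ligand genes was from Bmp4. Bmp2 made up 4.82% of the summed per-length level of Bmp2, Bmp4 and Bmp6 in the GFP libraries and 7.62% in the ORAI2 libraries.

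**Figure D2:**
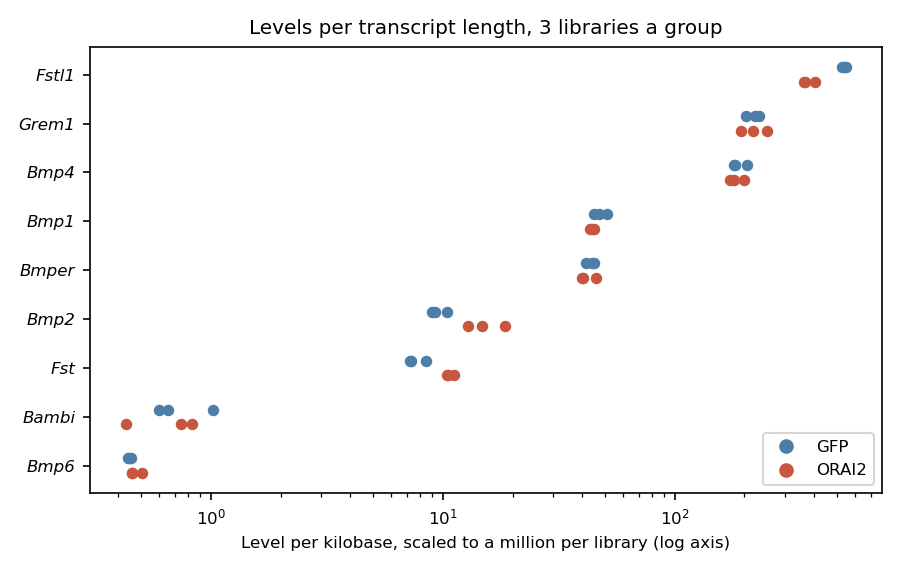
Level per kilobase of merged exon, rescaled to the same sum in every library, on a log axis, for the 9 genes ordered by their mean in the GFP libraries; each point is 1 library (blue GFP, red ORAI2). Fstl1, Grem1 and Bmp4 lie highest, and Bambi and Bmp6 lie around or under 1.

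The promoters of the 3 genes most abundant on the per-length scale are shown because they differ in outcome. Fstl1 fell, whereas Grem1 and Bmp4 were not called. Each window runs from 250 bases before to 50 bases after the annotated start, 5′ to 3′ along the gene, from RefSeq on build GRCm38.p6, an older build than the GRCm39 named in the submitters' processing notes. Windows were held for 5 of the 9 genes (Bmp4, Bmp6, Grem1, Fstl1 and Bmper). Capitals mark any motif found. The AP-1 motif was searched as TGANTCA. The cAMP response element was searched as TGACGTCA. The GC-rich box of SMAD proteins was searched as GGCGCC. The TATA box was searched as TATAAA. Both strands were read, and no matches overlapped. Fstl1 lies at chr16:37776805-37777104, plus strand, Grem1 at chr2:113758599-113758898, minus strand, and Bmp4 at chr14:46390620-46390919, minus strand.
Fstl1: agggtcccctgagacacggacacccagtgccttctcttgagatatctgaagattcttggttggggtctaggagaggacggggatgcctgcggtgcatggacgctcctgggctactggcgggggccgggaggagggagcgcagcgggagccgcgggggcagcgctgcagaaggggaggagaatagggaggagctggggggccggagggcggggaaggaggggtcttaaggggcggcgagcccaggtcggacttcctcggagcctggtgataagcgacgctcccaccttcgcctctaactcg
Grem1: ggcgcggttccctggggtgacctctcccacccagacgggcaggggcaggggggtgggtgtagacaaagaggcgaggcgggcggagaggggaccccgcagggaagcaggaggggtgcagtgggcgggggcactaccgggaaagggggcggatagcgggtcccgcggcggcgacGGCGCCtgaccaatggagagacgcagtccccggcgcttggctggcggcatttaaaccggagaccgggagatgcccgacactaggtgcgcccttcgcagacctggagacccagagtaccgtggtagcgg
Bmp4: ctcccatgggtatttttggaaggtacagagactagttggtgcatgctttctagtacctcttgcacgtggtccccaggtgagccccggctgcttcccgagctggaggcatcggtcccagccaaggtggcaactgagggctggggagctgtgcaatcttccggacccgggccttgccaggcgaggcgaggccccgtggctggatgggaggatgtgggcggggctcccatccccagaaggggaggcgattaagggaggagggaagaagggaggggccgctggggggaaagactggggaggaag
The GC content was 66.7% for Fstl1, 70.7% for Grem1 and 64.0% for Bmp4, against a median of 52.7% over 32851 windows of 300 bases. The single match among the 5 windows was GGCGCC in Grem1, with its first base 78 bases before the start. Of all windows, 11.9% held the SMAD box, 7.81% the AP-1 motif, 1.79% the cAMP response element and 13.6% the TATA box.

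Among the ligand genes, Bmp2 rose. It encodes a potent inducer of bone formation. GFP replicates 1 to 3 had 153, 170 and 145 counts, and ORAI2 replicates 1 to 3 had 234, 209 and 296. Every ORAI2 library lay above every GFP library, with ORAI2 replicate 3 highest. The level went from 8.36 ± 0.680 to 13.3 ± 2.49 CPM (SD, n = 3 each), a 1.59-fold rise (log2 fold change 0.66, SE 0.13, adjusted p = 0.00115, edgeR). The SD was larger in the ORAI2 libraries. Orai2 itself had 67882, 53034 and 45140 counts in ORAI2 replicates 1 to 3, so the library with the most Bmp2 was the one with the least Orai2. Without ORAI2 replicate 3 the log2 fold change of Bmp2 was 0.51 and still called.

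Bmp4, a close relative of Bmp2 and here the main BMP ligand by RNA level, was not called. It had 1898, 1873 and 2090 counts with GFP against 1753, 1861 and 2015 with ORAI2, and the groups overlapped, with replicate 3 highest in both. The level was 105 ± 6.29 CPM with GFP and 101 ± 7.41 CPM with ORAI2 (SD, n = 3 each; log2 fold change -0.05, SE 0.06, adjusted p = 0.482, edgeR). The 95% interval of the ratio of ORAI2 to GFP ran from 0.886 to 1.05, so a change of the size seen for Bmp2 lies outside it. The predicted gene Gm15222, which overlaps Bmp4 in the RefSeq annotation, had 401 counts over the 6 libraries against 11490 for Bmp4. No label says whether reads were counted by strand.

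Bmp6, a ligand that also controls iron balance, was barely detected. It had 8 counts in each GFP library and 8, 9 and 8 with ORAI2, about 0.4 CPM, and it stayed under the low-count filter. With no filter its log2 fold change was 0.06 (adjusted p = 0.954, edgeR). Counts this low can show only large differences. Bmp6 overlaps Txndc5, which had 24728 counts against 49 for Bmp6 over the 6 libraries, so its value is uncertain.

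Because Bmp2 rose and Bmp4 was not called, their balance was examined within each library. The per-length ratio of Bmp2 to Bmp4 was 0.0510, 0.0574 and 0.0439 with GFP against 0.0844, 0.0710 and 0.0929 with ORAI2, without overlap. Bmp2 stayed far below Bmp4 in all 6 libraries. The sum of Bmp2, Bmp4 and Bmp6 per length was 199 ± 13.3 with GFP and 200 ± 15.7 with ORAI2 (SD, n = 3 each), with overlapping groups. For a single ratio an exact permutation test of 3 libraries against 3 cannot go below p = 0.1, so ratios are given as values.

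The protease gene Bmp1 fell slightly. It had 1860, 1917 and 2056 counts with GFP against 1711, 1786 and 1791 with ORAI2, which did not overlap but lay close together. The level was 104 ± 5.28 and 94.8 ± 2.41 CPM (SD, n = 3 each), 1.10-fold lower (log2 fold change -0.14, SE 0.04, adjusted p = 0.0238, edgeR). This call was the least stable of the 4. It was lost with DESeq2 (adjusted p = 0.0540) and without GFP replicate 3 (0.0859), ORAI2 replicate 1 (0.110) or ORAI2 replicate 2 (0.0575), within a range over all alternatives of 0.0102 to 0.110.

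Genes for proteins that work with Bmp1 on procollagen changed more. Pcolce, whose product enhances procollagen cleavage by Bmp1, had 13797, 12822 and 13256 counts with GFP and 7257, 7281 and 7431 with ORAI2. It fell from 712 ± 27.3 to 394 ± 7.10 CPM (1.81-fold, adjusted p = 1.05e-08, edgeR). Its paralog Pcolce2, at 12.2 ± 1.32 CPM with GFP and 20.6 ± 0.771 with ORAI2, was 1.69-fold higher (edgeR adjusted p = 1.98e-05) and remained the scarcer of the pair per length (18.3 ± 0.692 against 424 ± 8.11 with ORAI2). The per-length ratio of Pcolce to Bmp1 was 15.9 ± 1.17 with GFP and 9.64 ± 0.191 with ORAI2 (SD, n = 3 each). The related proteases Tll1 and Tll2 had at most 2 counts in a library.

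Among the antagonist genes, Fstl1 showed the clearest difference. It encodes follistatin-like 1, a secreted glycoprotein of mesenchymal cells that can bind BMP4 and dampen its signal. With GFP its counts were 12522, 12176 and 11706, and with ORAI2 they were 8059, 8150 and 8896, with a wide gap between the groups. The level fell from 650 ± 22.8 to 450 ± 26.9 CPM (SD, n = 3 each), 1.44-fold lower with a 95% interval of 1.35 to 1.55 (log2 fold change -0.53, SE 0.05, adjusted p = 1.76e-06, edgeR). In all 16 alternative analyses the fall was called, with log2 fold changes from -0.58 to -0.50.

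Fstl1 fell together with markers of the fibroblast itself. Of 13 fibroblast and mesenchymal markers, 12 were tested and all 12 were called lower, beside 22.1% of all tested genes. The median log2 fold change of the 12 was -0.55. Their summed level, with Thy1 included, lay between 8295 and 8830 CPM in the GFP libraries and between 6572 and 7119 CPM in the ORAI2 libraries. Fn1 made up most of that sum (5792 ± 292 and 5177 ± 260 CPM) and fell only 1.12-fold, while Col1a1 fell from 1260 ± 47.6 to 486 ± 18.4 CPM. None of the 13 was at 0, but Thy1, a usual marker of mesenchymal stem cells, had only 1 to 3 counts in a library. The part of this in the fall of Fstl1 was not tested. In such bulk libraries fewer cells of a type and less RNA per cell cannot be told apart.

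Some markers of other cell types differed between the groups too. In these short lists the calls are to be read against the 42.9% of all tested genes that were called (20.8% higher and 22.1% lower). Of 3 tested macrophage markers 2 were lower, with a summed level of the list of 52.0 to 56.2 CPM with GFP and 26.7 to 36.0 CPM with ORAI2. Cd14 (36.3 to 41.6 with GFP and 21.4 to 30.4 CPM with ORAI2) and Mpeg1 made up most of that sum. Mpeg1 had means of 11.9 and 3.62 CPM (log2 fold change -1.72, SE 0.12). Cd68 was not called (log2 fold change -0.24). The untested macrophage markers were scarce and did not share a direction. Lyz2 had 0, 7 and 1 counts with GFP and 7, 8 and 3 with ORAI2. Csf1r had 3, 1 and 3 against 0, 4 and 2. Aif1 had 1 count, in GFP replicate 3, and Ptprc had at most 2 counts in a library. Both tested endothelial markers, Kdr and Vwf, were higher. These 2 made up most of the summed level of the list (6.48 to 8.83 against 16.3 to 17.6 CPM) and carried its rise. The 5 untested markers were scarce and did not share a direction. Pecam1 had 6, 3 and 7 counts with GFP and 4, 1 and 4 with ORAI2. Tek had 5, 2 and 1 against 1, 1 and 0, while Cdh5 had 0, 1 and 1 against 1, 3 and 3. Cldn5 had 1 count, in ORAI2 replicate 1, and Emcn was at 0. Of 2 tested epithelial markers 1 was higher (summed level of the list 2.78 to 3.75 against 4.22 to 5.12 CPM). It was Grhl2 (0.500 ± 0.188 and 2.36 ± 0.646 CPM), which alone carried the rise of that sum. Krt18 was not called (log2 fold change -0.23), and the other 5 had at most 5 counts in a library, with Epcam at 0. Of 4 tested neural and glial markers 1 was higher and 1 lower (131 to 145 against 163 to 175 CPM). Nes alone (124 ± 6.97 and 154 ± 6.41 CPM) made up most of that sum and carried its rise, while Mbp was lower (log2 fold change -0.85) and Tubb3 was not called (-0.28). The single tested skeletal muscle marker was not called (0.376 to 0.910 against 0.595 to 0.916 CPM). Their part in the changes of the 9 genes was not tested.

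Fst rose. It encodes follistatin, which binds activins tightly and BMPs more weakly. It had 156, 179 and 150 counts with GFP against 217, 236 and 214 with ORAI2, with no overlap. The level went from 8.66 ± 0.815 to 12.0 ± 0.561 CPM (SD, n = 3 each), 1.38-fold higher (log2 fold change 0.46, SE 0.10, adjusted p = 0.00171, edgeR). The call was made in all 16 alternatives, with log2 fold changes from 0.41 to 0.54. Fst and its namesake Fstl1 thus changed in opposite directions.

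The main ligand of follistatin moved with it. Inhba, which encodes the subunit of activin A, had 1951, 1943 and 1800 counts with GFP and 2742, 2787 and 2888 with ORAI2. The edgeR fold change was 1.48 (102 ± 4.64 with GFP, 151 ± 4.64 CPM with ORAI2; adjusted p = 4.70e-07). The per-length ratio of Inhba to Fst overlapped between the groups, at 7.80 to 8.98 with GFP and 8.48 to 9.69 with ORAI2. Inhbb, the subunit of activin B, was scarce (1.29 ± 0.282 CPM with GFP, 0.377 ± 0.0952 with ORAI2) and 3.37-fold lower (edgeR adjusted p = 9.33e-04). Of the other subunits, Inha and Inhbe were not called (log2 fold changes -0.22 and 0.72), and Inhbc had no count in any library.

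Grem1, which encodes gremlin 1, a strong antagonist of BMP2 and BMP4, was not called. It had 4256, 3889 and 4340 counts with GFP against 4039, 3679 and 4673 with ORAI2, and the ORAI2 libraries spanned the whole range of the GFP libraries. The levels were 223 ± 13.0 and 222 ± 28.5 CPM (SD, n = 3 each; log2 fold change -0.0048, SE 0.07, adjusted p = 0.966, edgeR). The 95% interval of the ratio of ORAI2 to GFP ran from 0.892 to 1.11. The sign of this small difference turned without GFP replicate 1 or 3 or ORAI2 replicate 1 or 2, within a range of -0.10 to 0.08.

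Bmper, which encodes a BMP-binding protein that can dampen or aid the signal depending on its amount, was not called either. It had 928, 976 and 984 counts with GFP and 866, 894 and 998 with ORAI2, in overlapping groups. The levels were 51.6 ± 1.54 and 49.4 ± 3.96 CPM (SD, n = 3 each; log2 fold change -0.06, SE 0.06, adjusted p = 0.431, edgeR), with a 95% interval of the ratio from 0.878 to 1.05. The decoy receptor gene Bambi had 24, 14 and 15 counts with GFP and 17, 10 and 19 with ORAI2, about 1 CPM, in overlapping groups. Its log2 fold change was -0.20 (SE 0.33, adjusted p = 0.667, edgeR). The interval of its ratio, 0.528 to 1.44, was wide, so a change as large as that of Fstl1 or Fst was not detectable at this depth.

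**Figure D3:**
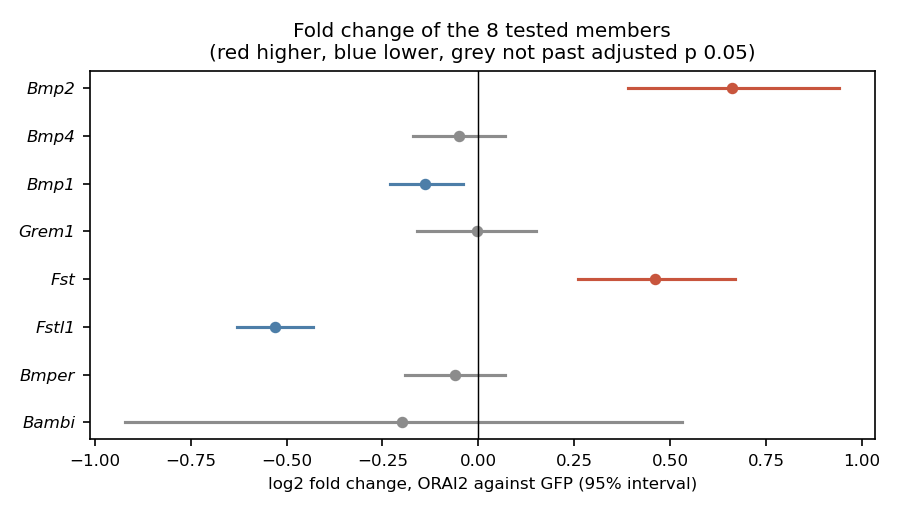
Log2 fold change of ORAI2 against GFP for the 8 tested genes, with the 95% interval from the edgeR fit; red genes were called higher, blue lower, and grey genes were not called. Bmp2 (0.66) and Fst (0.46) lie to the right of 0 and Fstl1 (-0.53) to the left, Bmp1 lies just left of 0, and the interval of Bambi is the widest.

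Set against each other within a library, the ligand and antagonist RNAs gave a ratio that depended on which antagonists were counted. The summed per-length level of Bmp2, Bmp4 and Bmp6 over that of Grem1, Fst, Fstl1 and Bmper was 0.234, 0.242 and 0.265 with GFP against 0.298, 0.320 and 0.308 with ORAI2, without overlap. The antagonist sum was 807 ± 11.4 with GFP and 650 ± 52.9 with ORAI2 (SD, n = 3 each), and Fstl1 made up most of it. With Grem1 and Bmper alone as the denominator the ratio lay between 0.730 and 0.778 with GFP and between 0.735 and 0.829 with ORAI2, and the groups overlapped. The ratio of Bmp4 to Grem1 overlapped too (0.823 to 0.889 and 0.796 to 0.933). The size of these ratios and the share of Fstl1 in the antagonist sum depend on the gene lengths used.

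Genes whose pattern over the 6 libraries was most like that of the 3 genes with the smallest p were found by Pearson's r of log2 CPM among 10114 genes that have a symbol and average 5 CPM or more. For Fstl1 they were Il15, a cytokine gene (r = 0.9997), and Prrx1, a transcription factor gene of limb and facial mesenchyme (r = 0.9981). For Bmp2 they were Smc6, for a subunit of a chromosome repair complex (r = 0.9951), and Dhx29, for an RNA helicase of translation initiation (r = 0.9943). For Fst they were Ncapg, for a condensin subunit (r = 0.9978), and Ovca2 (r = 0.9956). Over 6 libraries in 2 groups such values are easily high: r was over 0.95 for 1017 genes with Fstl1, 382 with Fst and 82 with Bmp2, and the libraries share their group difference.

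The rest of the pathway was read from 8 lists of other ligands, activin subunits, antagonists, proteases, convertases, receptors, SMADs and targets. Of 44 tested genes, each counted once, 10 were higher, 13 lower and 21 not called. Their median log2 fold change was -0.06. The 52.3% called stand beside 42.9% over all tested genes (20.8% higher and 22.1% lower). The calls of each short list below are to be read against the same shares.

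Of 14 other BMP and GDF ligand genes 12 were in the table, 10 of them had at most 15 counts in a library and stayed under the filter, and 2 were tested. Gdf5, a joint and cartilage ligand, had 29, 26 and 25 counts with GFP and 12, 11 and 19 with ORAI2, and was 1.89-fold lower (adjusted p = 0.0176, edgeR). This call was lost with DESeq2 (adjusted p = 0.0752) and without GFP replicate 1 (0.0576), ORAI2 replicate 1 (0.0702) or ORAI2 replicate 2 (0.0780), within a range of 0.0105 to 0.0780. Gdf11, at 26.0 ± 1.04 CPM with GFP and 23.5 ± 1.43 with ORAI2 (SD, n = 3 each), was not called (edgeR log2 fold change -0.14, adjusted p = 0.105). Gdf2, the gene for BMP9, had 1, 0 and 1 counts with GFP and 13, 11 and 5 with ORAI2, under the filter. The ratio of the summed counts, 29 against 2, was 14.6 after division by the library totals, with an exact 95% interval from 3.69 to 126 that covers counting error only.

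Of 8 other tested antagonist genes none was higher, 2 were lower and 6 were not called, with a median log2 fold change of -0.06. Htra1, for a secreted protease that can inhibit TGF-beta family signals, stood at 55.4 ± 2.32 CPM with GFP and 36.7 ± 1.92 with ORAI2, a 1.51-fold fall (edgeR adjusted p = 2.73e-06). Crim1, for a membrane protein that binds BMPs, was 1.13-fold lower (adjusted p = 0.00272). Chrd, the gene for chordin, which Bmp1 cleaves, had 101, 95 and 96 counts with GFP and 77, 78 and 80 with ORAI2. The groups of Chrd did not overlap, but the difference was not called (log2 fold change -0.31, adjusted p = 0.0579), and it was called with upper quartile scaling (0.0442) and with a filter at 5 CPM (0.0485), within a range of 0.0442 to 0.234. Nog, the gene for noggin, was near 0.5 CPM and not called (log2 fold change 0.34, adjusted p = 0.492).

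Of 12 tested receptors and co-receptors 2 were higher, 5 lower and 5 not called, with a median log2 fold change of -0.08. Neo1, for neogenin, a receptor of repulsive guidance molecules that act as BMP co-receptors, stood at 555 ± 22.8 CPM with GFP and 745 ± 35.7 with ORAI2, a 1.34-fold rise (edgeR adjusted p = 8.36e-06). Of the genes for those molecules, Rgma was 1.45-fold lower (7.32 ± 0.664 and 5.03 ± 0.663 CPM, edgeR adjusted p = 0.00429). Rgmb was not called (log2 fold change 0.0099). The co-receptor genes Tgfbr3 and Eng (endoglin) were 1.21-fold and 1.23-fold lower. Bmpr2, a type II receptor, stood at 163 ± 4.67 CPM with GFP and 146 ± 3.02 with ORAI2, 1.11-fold lower (edgeR adjusted p = 0.00416). Bmpr1a, a type I receptor, was not called (log2 fold change -0.08, adjusted p = 0.116).

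Of the convertases that cut BMP precursors, Furin rose 1.17-fold (adjusted p = 0.00896, edgeR), Pcsk7 was not called, and Pcsk5 and Pcsk6 had at most 2 counts in a library. Of 8 SMAD and SMURF genes 4 were higher, 1 lower and 3 not called (median log2 fold change 0.19). Smad1, a signal transducer, stood at 47.2 ± 1.76 CPM with GFP and 56.0 ± 1.28 with ORAI2, a 1.19-fold rise (edgeR adjusted p = 0.00105). Smurf1, for a ligase that marks SMADs for degradation, rose from 164 ± 9.61 to 196 ± 7.91 CPM. Of 8 tested BMP target genes 2 were higher, 3 lower and 3 not called (median log2 fold change -0.21), with Id1 and Smad7 higher and Smad6, Atoh8 and Id3 lower.

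**Figure D4:**
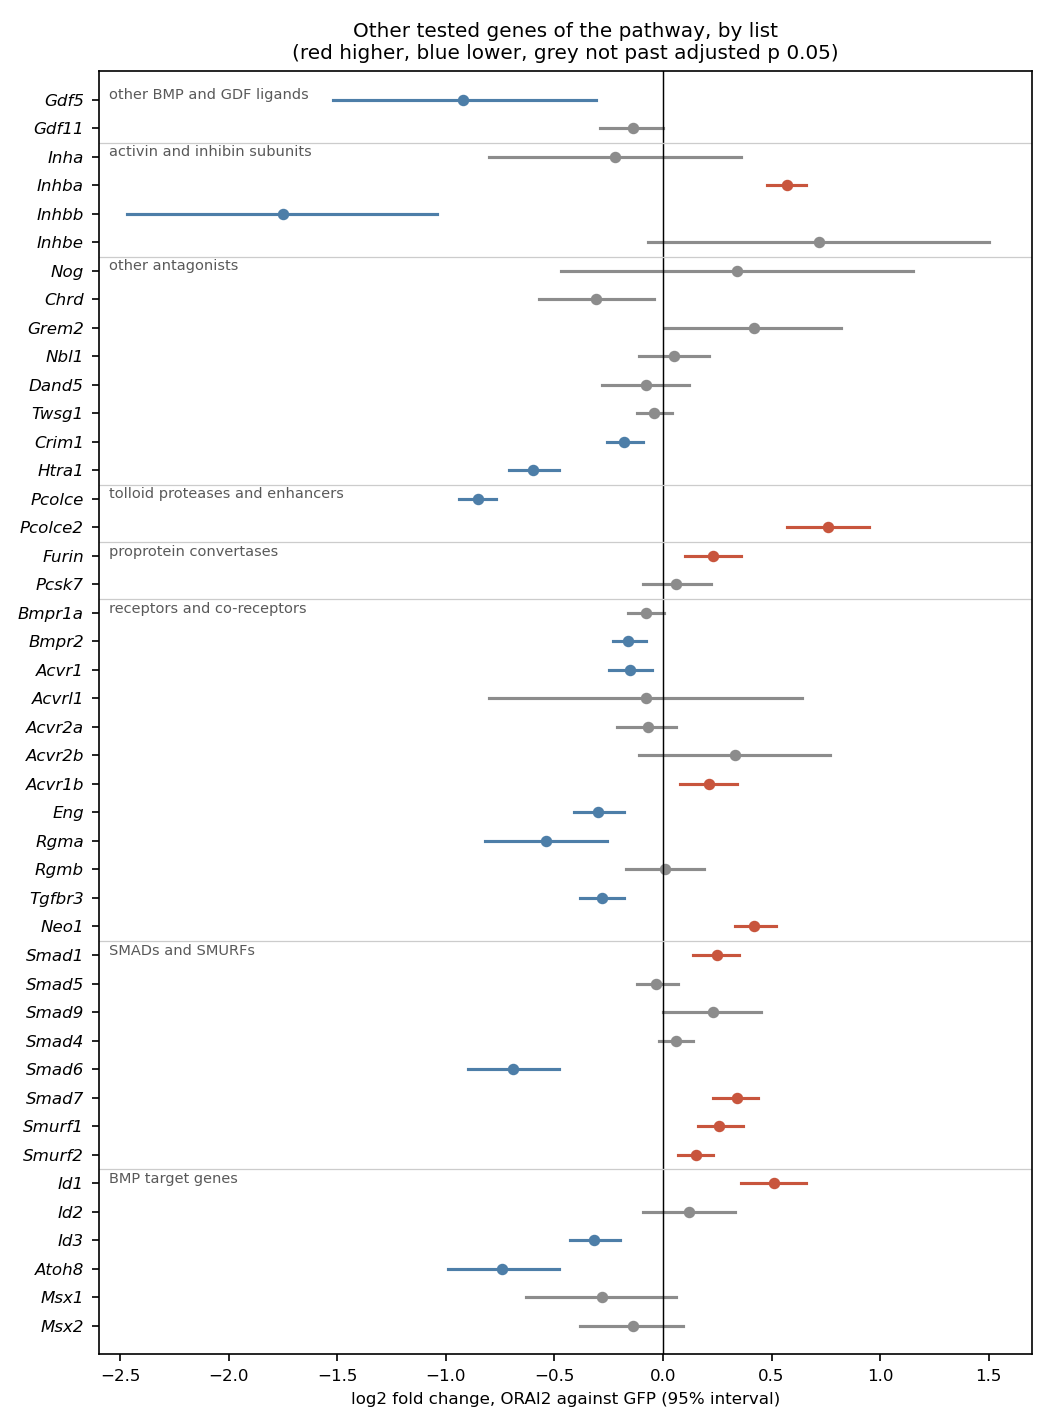
Log2 fold change of ORAI2 against GFP with its 95% interval for the 44 other tested genes of the pathway, grouped by list (Smad6 and Smad7 are drawn once, with the SMADs); red genes were called higher, blue lower, and grey genes were not called. Inhba and Pcolce2 lie farthest to the right among the called genes and Inhbb, Gdf5 and Pcolce farthest to the left.

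**Figure D5:**
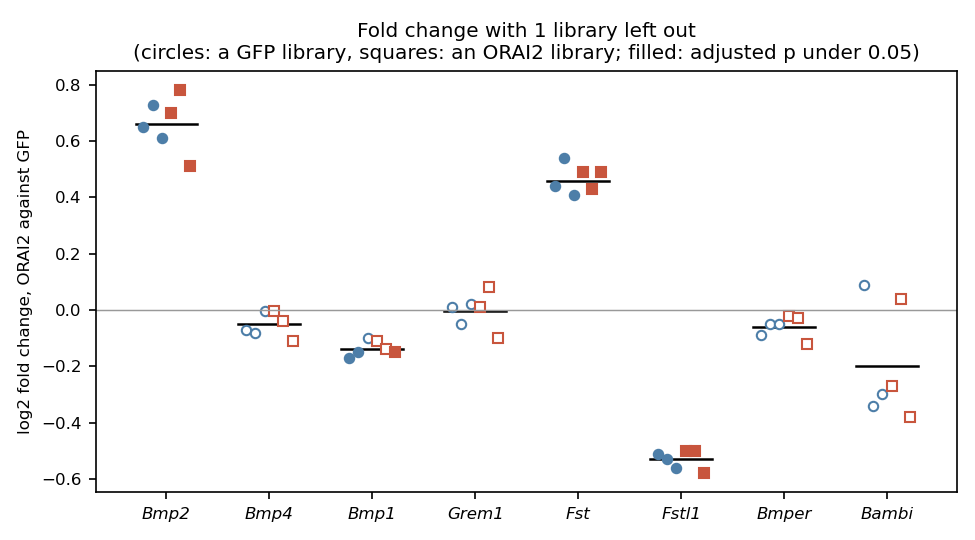
Log2 fold change of the 8 tested genes when 1 library is left out, with the value from all 6 libraries as a black line; blue circles leave out a GFP library and red squares an ORAI2 library, and filled markers have an adjusted p under 0.05. Bmp2, Fst and Fstl1 stay called in all 6 cases, Bmp1 in 3 of them, and Grem1 and Bambi lie on both sides of 0.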

How the data were processed

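RNA was measured in 6 libraries, 3 per group. Per the labels' protocols, mRNA was purified on oligo(dT) beads. The submitters' processing notes name Salmon 1.4.0, HISAT2 2.0.4 and build GRCm39, without roles; strand use and annotation are not given in the sources consulted. The authors deposited whole-number counts and TPM values per Entrez gene; the TPM columns, which did not follow the counts, entered no test. RefSeq (GRCm38.p6) gave symbols for 25631 of 26532 numbers (96.6%). Counts within a group differed by more than sampling noise (chi-square per gene 2.54 to 4.50).

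The counts as deposited were fitted with edgeR 4.0.16 in R 4.3.3 (glmQLFit, glmQLFTest, TMM, filterByExpr with a minimum count of 10, group as the only term). Standard errors come from the F statistic. Per-length levels used merged exons of GENCODE on GRCm38. Alternatives were RLE, upper quartile and unscaled library sizes, other filters, DESeq2 1.42.0, limma-voom 3.58.1, thinning to the smallest library total, a replicate block, a robust fit, and each library left out. The fitting steps were tested on simulated counts with far fewer changed genes than were called here. Recovery of fold changes as small as those of the members is not given.

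The members and lists were chosen with earlier results of these data known. Beside the 9 members, the text names up to 4 called genes with the smallest p from each of 8 pathway lists, 8 genes of interest whatever their test, and the 2 genes most like each of 3 members; the other genes were named after their values were seen. The 6 marker lists cover fibroblasts, macrophages, endothelium, epithelium, neural cells and skeletal muscle.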

Additional observations from a re-analysis of the deposited data

Results flagged for a closer look

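The deposited TPM columns, which entered no test, held Bmp2 above the level of every column named GFP (5.08, 4.39 and 1.93 TPM): the columns for ORAI2 replicates 1 to 3 gave 6.14, 8.86 and 10.49 TPM. The highest of these is in the column whose Orai2 value, 36.33 TPM, lies among those of the GFP columns. Over 10115 genes that column followed no count column closely (best r 0.18), while the replicate 1 column was most like the counts of ORAI2 replicate 2 (r = 0.81) and the replicate 2 column most like those of ORAI2 replicate 3 (r = 0.75). The columns named GFP-1, GFP-2 and GFP-3 were most like the counts of GFP replicates 2, 3 and 1 (r = 0.59, 0.59 and 0.47). In the TPM columns Fstl1 did not overlap either (236.35 to 270.25 under ORAI2 names, 349.54 to 398.07 under GFP names), whereas Fst did. These splits follow the column names only, and the share of all genes split in this way was not counted. In groups of 3 libraries no single library was tested as an outlier.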

How the results depend on the processing

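Over 16 alternatives, Bmp2, Fst and Fstl1 were called in the same direction every time, with log2 fold changes of 0.51 to 0.78, 0.41 to 0.54 and -0.58 to -0.50. The number of members called was 3 or 4, the difference being Bmp1, and leaving out 1 library gave 3 to 4. Over all genes, leaving out 1 library gave 2354 to 2734 higher and 2568 to 2927 lower, against 2869 and 3040. DESeq2 called 4825 genes in all, of which 4813 were shared with the edgeR calls. No scaling moved the median of all genes by more than 0.1 on the log2 scale. The alternatives were followed for 35 tested genes, the members and the genes named by rule. Genes named after their values were seen, such as Id3, Kdr and Mpeg1, were not among them. Sign changes among the 35 were limited to genes that were not called: Grem1 (-0.10 to 0.08) and Bambi (-0.38 to 0.09), both with 1 library left out. Over these 35 genes, 537 of 556 alternative values kept direction and side of the threshold, 10 lost the call, 3 gained it and 6 changed sign. The labels give same-numbered libraries no shared source. Their deviations from the group means correlated weakly (r = 0.136, 0.073 and 0.126), and each library correlated best with its own number (other pairs -0.138 to 0.018), a hint from the data and not the design, so the block was kept as an alternative. With the replicate block, 3048 genes were higher and 3198 lower, and the same 4 members were called. Depth limits Bmp6 and Bambi, whose counts were 8 to 24 per library.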

Other observations

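Several other ligand genes under the low-count filter had few counts that leaned to one group, given here as values with no test and chosen after they were seen. Bmp3, which encodes an atypical BMP that opposes bone formation, had 0, 1 and 2 counts with GFP and 5 counts in each ORAI2 library. Bmp8b had 2, 3 and 7 counts with GFP and 1, 0 and 1 with ORAI2. Bmp5, Bmp7, Bmp10 and Bmp15 had at most 2 counts in a library, and Gdf3 had none.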
